A study of Mus musculus with 9 samples.

Results

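The genes described here belong to the system that clears quinones, carbonyls and related electrophiles, or respond to the stress these cause: Nqo1, Nqo2, Cbr1, Cbr3, Akr1b8, Ephx1, Ugt1a6a, Ugt1a7c, Abcc1 and Osgin1. These 10 genes, of 55401 in the deposited table, were chosen by their function with their TPM in these same columns in view, and were found by symbol, so the levels and changes below are a description and no member is given a p. All 10 were found in the table, and all 10 passed the filter on low values (a mean of at least 1 TPM over the columns) that left 12819 genes. RNA was sequenced from RAW264.7, a wild-type mouse macrophage line that arose from a tumor induced by Abelson murine leukemia virus in a male mouse. By the labels, treatment lasted 24 h, whereas the study's methods give a longer time. The cells received DMSO (the vehicle), DMSO plus LPS (called LPS here), or LPS together with skatole (LPS + Ska). LPS (lipopolysaccharide) is a bacterial wall component that activates macrophages, and skatole is 3-methylindole. Every group is the same cell line, both treated groups received LPS, and there was no group with skatole alone. Each group had 3 columns, numbered 5, 6 and 7. LPS compared with DMSO asks what activation did to these genes, LPS + Ska compared with LPS asks what skatole added, and LPS + Ska compared with DMSO sets the final level beside that of resting cells.

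Quinones can cycle between oxidized and reduced forms and yield reactive oxygen, and reactive carbonyls and epoxides bind to protein and DNA. Cells meet them first with reductases and hydrolases, then with enzymes that attach a polar group such as glucuronic acid, and last with pumps that export the product. Many genes of this system are known targets of Nrf2, a transcription factor that is held down by Keap1 and binds antioxidant response elements, and some are also targets of the aryl hydrocarbon receptor (AhR), which binds indole compounds and acts at xenobiotic response elements.

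Values are TPM, a gene's share of a column per unit of transcript length, so levels of different genes can be set side by side. Depth cannot be read from TPM and is unknown here. The columns of both treated groups were tied: replicate 5 was the mean of the other columns (tolerance 1e-05 TPM) in 17950 of 17950 genes above 0 in all LPS columns and in 17658 of 17658 for LPS + Ska, against at most 10 of 15721 genes for a DMSO column. No more than 2 values per gene are independent in either treated group, so n = 3 counts columns, and SDs and the limma test rest on fewer values than that. The SEs and p given below therefore tend to be too small, and the calls too many. Nothing in the labels says that the samples came from separate cultures, so the spread measured may be technical. The macrophage label held: 8 of 8 macrophage markers had at least 1 TPM in every group (summed 12020 to 12987 TPM with DMSO, 7133 to 7549 with LPS and 13479 to 13700 with LPS + Ska), and markers of T cells, B cells, fibroblasts, chondrocytes and hepatocytes each stayed below 1 TPM. The part of the lower marker sum with LPS in the results below was not tested. The LPS response genes Nos2 and Il6 were listed at 0 in every DMSO column and were above 0 in every column with LPS. Il6 had 3.69 to 5.01 TPM with LPS but 0.139 to 0.379 with LPS + Ska. Il1b had 0 to 0.369, 23.9 to 32.3 and 6.71 to 13.7 TPM with DMSO, LPS and LPS + Ska. Cxcl10 had 7.11 to 10.08, 37.9 to 42.1 and 10.04 to 17.2 TPM in that order, so its LPS + Ska columns overlapped DMSO. Fold changes are on the log2(TPM + 1) scale, on which changes at low TPM come out too small. A gene is called higher or lower here at a Benjamini-Hochberg adjusted p below 0.05 (limma) and a fold change above 1.5 or below 0.67.

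LPS lowered most of these genes, 6 of them rose with skatole while Cbr1 and Ephx1 stayed near their LPS level, and Akr1b8 and Ugt1a6a ended above resting cells. In LPS compared with DMSO, 8 of the 10 were called lower and 0 higher, where 20.0% of all tested genes were called lower and 12.7% higher. The LPS columns lay below every DMSO column in 9 of the 10 and above it in 0, as in 38.6% and 30.3% of all tested genes. In bulk RNA, fewer cells with a transcript and less of it per cell cannot be told apart. In LPS + Ska compared with LPS, 6 were called higher and 0 lower, where 3.35% of all tested genes were called higher and 6.14% lower. The LPS + Ska columns lay above every LPS column in 8 of the 10 and below it in 0, as in 17.2% and 34.0% of all tested genes. In LPS + Ska compared with DMSO, 2 were called higher (Ugt1a6a and Akr1b8) and 4 lower (Cbr1, Cbr3, Ugt1a7c and Osgin1, with Ugt1a6a subject to the shared exons described below), where 11.4% of all tested genes were called higher and 25.3% lower. The LPS + Ska columns lay above every DMSO column in 2 and below it in 5, as in 23.0% and 41.8% of all tested genes. The median log2 fold change of the 10 was -0.97, 0.81 and -0.40 in these comparisons, and that of all tested genes was -0.07, -0.10 and -0.18. The genes were chosen with these values known, so the counts describe them and are not evidence about them. The comparisons share columns, and a low LPS level enters both of the first 2.

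**Figure D1:**
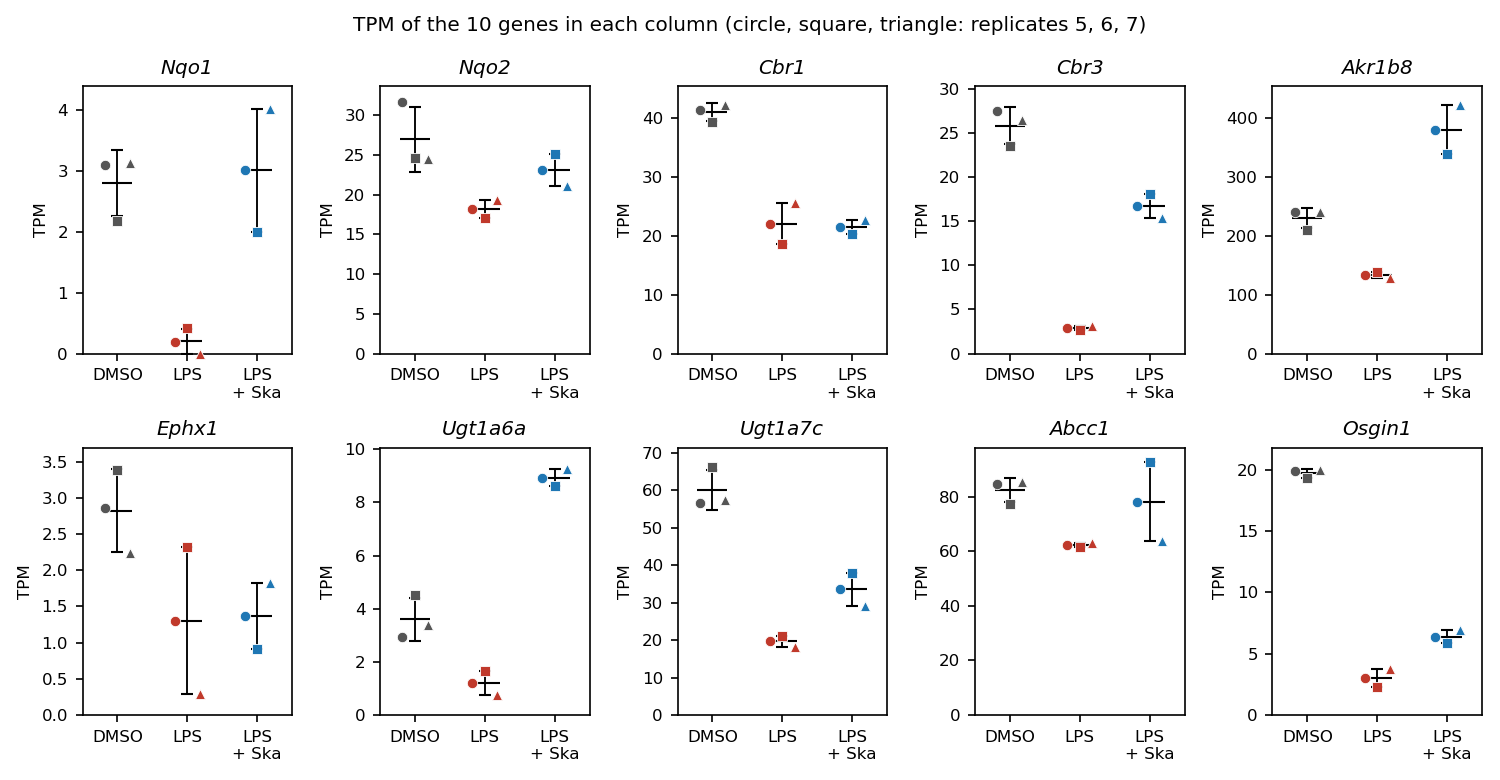
TPM (y axis, from 0) of each of the 10 genes in the DMSO, LPS and LPS + Ska columns (x axis). Circles, squares and triangles are replicates 5, 6 and 7, and bars show the mean ± SD of 3 columns. The LPS columns are the lowest group for Nqo1, Cbr3, Ugt1a6a and Akr1b8, whose LPS + Ska columns lie above all LPS columns, below DMSO for Cbr3, around it for Nqo1 and above it for the others, whereas Cbr1 stays as low with LPS + Ska as with LPS.

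NAD(P)H quinone dehydrogenase 1, the product of Nqo1, reduces quinones in a single step that avoids the semiquinone, and Nqo1 is a classical Nrf2 target. Nqo1 (ENSMUSG00000003849, chr8:107388225-107403206, minus strand) had 3.09, 2.17 and 3.12 TPM in the DMSO columns, 0.186, 0.413 and 0 TPM in the LPS columns and 3.002, 1.99 and 4.02 TPM in the LPS + Ska columns (replicates 5, 6 and 7). All LPS columns lay below 1 TPM and below every column of the other groups, and the LPS + Ska columns spread over the DMSO range and beyond. The log2 fold change was -1.67 (SE 0.22) in LPS compared with DMSO, 1.72 (SE 0.22) in LPS + Ska compared with LPS and 0.05 (SE 0.22) in LPS + Ska compared with DMSO, the first called lower and the second higher. The level was low in every group, with LPS replicate 7 listed at 0, so the size of the change depended on the pseudocount. With 0.1 in place of 1 it was -3.55 and 3.61 in the first 2 comparisons. The check for tied columns took in only genes above 0 in all columns of a group, so it left out Nqo1 with LPS. Whether this 0 was measured or came from how the columns were made was not tested.

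Nqo2 encodes the related quinone reductase that uses dihydronicotinamide riboside in place of NAD(P)H. Nqo2 (ENSMUSG00000046949, chr13:33964687-33988443, plus strand) had 31.6, 24.6 and 24.5 TPM with DMSO, 18.2, 17.0 and 19.4 TPM with LPS and 23.1, 25.1 and 21.1 TPM with LPS + Ska. The LPS columns were below all others, and LPS + Ska overlapped DMSO. Its log2 fold changes of -0.53, 0.33 and -0.21 (SE 0.11 each) were not called in any comparison, although -0.53 came near the fold limit and -0.59 was called without DMSO replicate 6 or without DMSO replicate 7. Of its 4042 exonic bases, 762 (18.9%) overlap Serpinb6a on the opposite strand, and the labels do not say that the libraries kept strand. Serpinb6a was also lowest with LPS (131.9 ± 18.2, 100.4 ± 4.86 and 134.1 ± 4.68 TPM, SD, n = 3 columns), and its part in the values of Nqo2 was not tested. The ratio of Nqo1 to Nqo2 TPM was 0.0882 to 0.127 in the DMSO columns, 0 to 0.0242 in the LPS columns and 0.0791 to 0.190 in the LPS + Ska columns. Its 0 comes from the Nqo1 value listed at 0 in LPS replicate 7.

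The carbonyl reductases Cbr1 and Cbr3 lie on the same strand of chromosome 16 with 72.7 kb between them, and both encode short-chain dehydrogenases that use NADPH to reduce ketones and aldehydes. Cbr1 (ENSMUSG00000051483, chr16:93605853-93610505, plus strand) had 41.4, 39.3 and 42.2 TPM with DMSO, 22.0, 18.6 and 25.5 TPM with LPS and 21.5, 20.3 and 22.7 TPM with LPS + Ska. The LPS + Ska columns fell inside the range of the LPS columns, and all of these lay below DMSO. Its log2 fold change was -0.88 (SE 0.11) in LPS compared with DMSO, called lower, -0.02 (SE 0.11) in LPS + Ska compared with LPS, not called, and -0.90 (SE 0.11) in LPS + Ska compared with DMSO, called lower. Cbr3 (ENSMUSG00000022947, chr16:93683215-93690990, plus strand) had 27.5, 23.5 and 26.5 TPM with DMSO, 2.89, 2.62 and 3.16 TPM with LPS and 16.7, 18.1 and 15.3 TPM with LPS + Ska. Its groups did not overlap in any of the comparisons. Mean TPM with LPS was 11.2% of that with DMSO and rose with skatole to 64.7% of it, with log2 fold changes of -2.78, 2.19 and -0.60 (SE 0.10 each), all called. The last was close to the fold limit and was not called with median-ratio scaling (-0.42), without DMSO replicate 5 (-0.55) or without LPS + Ska replicate 7 (-0.54). The ratio of Cbr3 to Cbr1 TPM was 0.597 to 0.664 with DMSO, 0.124 to 0.141 with LPS and 0.674 to 0.891 with LPS + Ska, so the levels of the neighbouring reductases lay furthest apart with LPS.

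Cbr1 and Cbr3 share function and locality, and both were called lower with LPS, but only Cbr3 was called higher in LPS + Ska compared with LPS. The stretches just before their RefSeq starts are shown (GRCm38, read 5′ to 3′ on the plus strand, chr16:93607587-93607836 for Cbr1 and chr16:93682969-93683214 for Cbr3). Capitals mark the xenobiotic response element core GCGTG on either strand, which reads CACGC on the opposite strand.
Cbr1: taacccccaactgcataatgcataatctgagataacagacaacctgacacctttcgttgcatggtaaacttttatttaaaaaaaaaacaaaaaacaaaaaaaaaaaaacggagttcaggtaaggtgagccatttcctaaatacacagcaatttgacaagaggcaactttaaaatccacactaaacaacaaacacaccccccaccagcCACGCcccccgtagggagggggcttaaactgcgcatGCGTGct
Cbr3: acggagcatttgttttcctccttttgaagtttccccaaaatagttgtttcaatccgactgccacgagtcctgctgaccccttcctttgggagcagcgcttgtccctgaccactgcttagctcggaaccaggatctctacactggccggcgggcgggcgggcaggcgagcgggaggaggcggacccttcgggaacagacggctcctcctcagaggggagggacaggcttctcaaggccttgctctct
Cbr1 held 2 such cores within the last 50 bases before its start, and Cbr3 held 0. Any part of these cores in the levels of the genes was not tested.

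Akr1b8 encodes an aldo-keto reductase of the aldose reductase family that reduces aldehydes and ketones, lipid peroxidation products among them. Akr1b8 (ENSMUSG00000029762, chr6:34354119-34368463, plus strand) had 240.1, 209.7 and 240.4 TPM with DMSO, 133, 139 and 128 TPM with LPS and 380.3, 338 and 422 TPM with LPS + Ska. The 3 groups were fully apart, with LPS lowest and LPS + Ska highest, and in each group Akr1b8 had the highest level of the 10 genes. Its log2 fold changes were -0.78, 1.501 and 0.72 (SE 0.09 each), all called, and its mean TPM with LPS + Ska was 165% of that with DMSO. The adjacent gene Akr1b10 is a close relative, and the sources used here do not say how reads that match both were split. Akr1b10 had 55.3 ± 5.28, 30.1 ± 0.233 and 24.0 ± 1.61 TPM (SD, n = 3 columns) with DMSO, LPS and LPS + Ska, so its mean was lower, not higher, with skatole. The ratio of Akr1b8 to Akr1b10 was 3.92 to 4.67 with DMSO, 4.28 to 4.58 with LPS and 15.1 to 16.5 with LPS + Ska. Against Akr1b3, the aldose reductase gene itself, the ratio was 0.510 to 0.612, 0.167 to 0.191 and 0.316 to 0.333 with DMSO, LPS and LPS + Ska, and Akr1b3 itself was called higher in all 3 comparisons.

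Microsomal epoxide hydrolase, encoded by Ephx1, opens epoxides to diols. Ephx1 (ENSMUSG00000038776, chr1:180976210-181020904, minus strand) had 2.85, 3.38 and 2.24 TPM with DMSO, 1.30, 2.32 and 0.286 TPM with LPS and 1.37, 0.907 and 1.82 TPM with LPS + Ska. LPS replicate 6 lay within the DMSO range, and the LPS columns spanned all of the LPS + Ska columns. Its log2 fold change was -0.83 (SE 0.32) in LPS compared with DMSO, called lower in the fit of all columns but not in 12 of 16 alternatives. It was lost when any DMSO column was left out (-0.72 to -0.94), and also without LPS + Ska replicate 5 (-0.83), LPS replicate 5 (-0.88) or LPS replicate 7 (-0.46). In LPS + Ska compared with LPS it was 0.13 (SE 0.32), and in LPS + Ska compared with DMSO it was -0.70 (SE 0.32), neither of them called. The last was called in 4 of 16 alternatives. These were values rebuilt from the tied columns (-0.69), the compared groups alone, and the fits without LPS replicate 6 or without LPS replicate 7 (-0.70 each).

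UDP-glucuronosyltransferases join glucuronic acid to phenols and other acceptors, and those of the Ugt1a locus are made from alternative first exons, each with its own start, spliced to a common set of exons. The locus held 9 genes in the annotation (GENCODE vM21, GRCm38). Ugt1a6a (ENSMUSG00000054545, chr1:88134809-88218997, plus strand), of the subfamily known for small planar phenols, had 2.94, 4.504 and 3.38 TPM with DMSO, 1.21, 1.66 and 0.757 TPM with LPS and 8.94, 8.61 and 9.26 TPM with LPS + Ska. Every LPS column lay below DMSO and every LPS + Ska column above it. The log2 fold changes were -1.07, 2.19 and 1.12 (SE 0.18 each), all called, and the mean with LPS + Ska was 247.6% of that with DMSO. Ugt1a7c (ENSMUSG00000090124, chr1:88095062-88220002, plus strand) had 56.7, 66.3 and 57.3 TPM with DMSO, 19.7, 21.1 and 18.3 TPM with LPS and 33.6, 38.0 and 29.1 TPM with LPS + Ska. LPS + Ska lay between the other groups without overlap. Its log2 fold changes were -1.56, 0.74 and -0.83 (SE 0.11 each), all called, and the mean with LPS + Ska was 55.8% of that with DMSO.

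Together these genes held nearly all TPM of the locus, which summed to 65.5 ± 6.10 TPM with DMSO, 21.5 ± 1.79 with LPS and 43.8 ± 3.70 with skatole added (SD, n = 3 columns). The share of Ugt1a6a was 4.91% to 6.26% of the sum with DMSO, 3.84% to 7.14% with LPS and 18.1% to 23.1% with LPS + Ska. Ugt1a1 reached 3.39 TPM in 1 column, the other members Ugt1a2, Ugt1a5, Ugt1a6b, Ugt1a8 and Ugt1a10 stayed below 1 TPM, and Ugt1a9 was listed at 0 throughout. The division between the genes is uncertain. Of the 2392 exonic bases of the coding transcripts of Ugt1a6a, 90.7% also belong to another Ugt1a gene and 222 are its own, and the exon chr1:88138473-88139331 belongs to annotated transcripts of both Ugt1a6a and Ugt1a7c. Of the 4219 bases of Ugt1a7c, 54.6% are shared. Summed as 1 locus, the log2 fold change in LPS + Ska compared with DMSO was -0.57, below the fold limit, where Ugt1a6a taken alone gave 1.12. In LPS + Ska compared with LPS the summed locus gave 1.00 and was called higher.

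**Figure D2:**
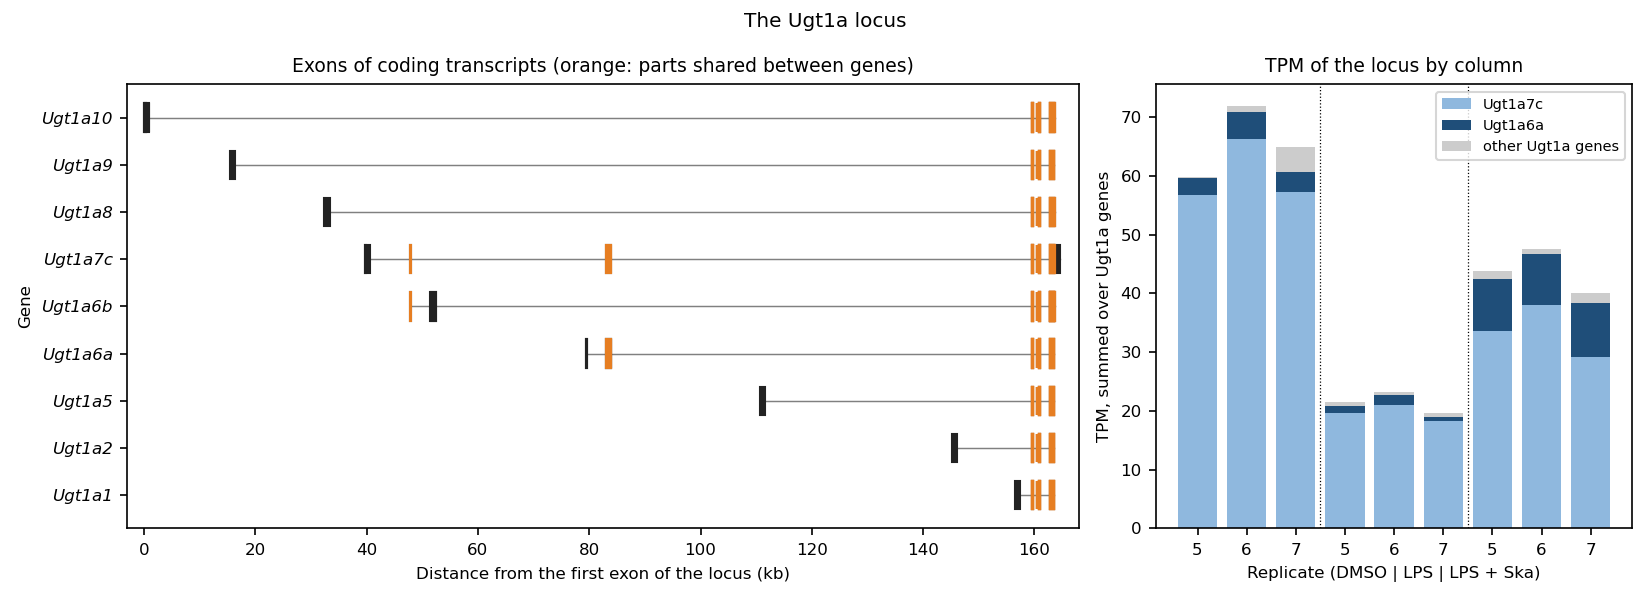
Left, exons of the coding transcripts of the 9 Ugt1a genes by distance from the first exon of the locus in kb, with the parts of exons that another Ugt1a gene also uses in orange and the parts of a single gene in black; exons are drawn with a minimum line width. Right, stacked TPM of the locus (y axis, from 0) by column, with 4.91% to 6.26% in Ugt1a6a with DMSO and 18.1% to 23.1% with LPS + Ska.

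The stretches before the RefSeq starts of Ugt1a6a and Ugt1a7c are shown because each of these first exons has a start of its own, while most of what follows is common to both (GRCm38, read 5′ to 3′ on the plus strand, chr1:88134559-88134808 for Ugt1a6a and chr1:88094751-88095000 for Ugt1a7c). No motif searched was found in them, so neither carries capitals.
Ugt1a6a: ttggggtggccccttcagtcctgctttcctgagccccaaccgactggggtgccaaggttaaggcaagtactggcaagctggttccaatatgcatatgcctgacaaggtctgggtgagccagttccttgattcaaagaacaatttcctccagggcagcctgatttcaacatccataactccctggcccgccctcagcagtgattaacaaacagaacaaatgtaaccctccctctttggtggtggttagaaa
Ugt1a7c: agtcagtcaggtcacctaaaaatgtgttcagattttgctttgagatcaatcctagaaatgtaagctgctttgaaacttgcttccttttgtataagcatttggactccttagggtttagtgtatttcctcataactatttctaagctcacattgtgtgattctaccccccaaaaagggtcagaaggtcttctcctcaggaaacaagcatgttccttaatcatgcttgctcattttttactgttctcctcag
Both stretches end at the RefSeq start and hold no exon base of the gene.

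Abcc1 encodes multidrug resistance-associated protein 1, a pump of the plasma membrane that exports glutathione, glucuronide and sulfate conjugates. Abcc1 (ENSMUSG00000023088, chr16:14361558-14475737, plus strand) had 84.5, 77.2 and 85.4 TPM with DMSO, 62.3, 61.4 and 63.2 TPM with LPS and 78.2, 92.7 and 63.8 TPM with LPS + Ska. The LPS columns were the lowest, but LPS + Ska replicate 7 lay within 1 TPM of LPS replicate 7, and the LPS + Ska columns spanned those of DMSO. Its log2 fold changes of -0.40, 0.31 and -0.09 (SE 0.11 each) were not called.

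Osgin1 encodes an oxidative stress-induced growth inhibitor with a flavin-dependent monooxygenase fold and is also a known Nrf2 target. Osgin1 (ENSMUSG00000074063, chr8:119434124-119446256, plus strand) had 19.9, 19.3 and 20.0 TPM with DMSO, 3.02, 2.29 and 3.74 TPM with LPS and 6.37, 5.84 and 6.90 TPM with LPS + Ska. The groups did not overlap, and LPS + Ska stayed closer to LPS than to DMSO. The log2 fold changes were -2.38, 0.89 and -1.49 (SE 0.13 each), all called, and the mean with LPS + Ska was 32.3% of that with DMSO. The rise over LPS was not called with replicates 6 and 7 alone for the LPS and LPS + Ska groups (0.90).

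**Figure D3:**
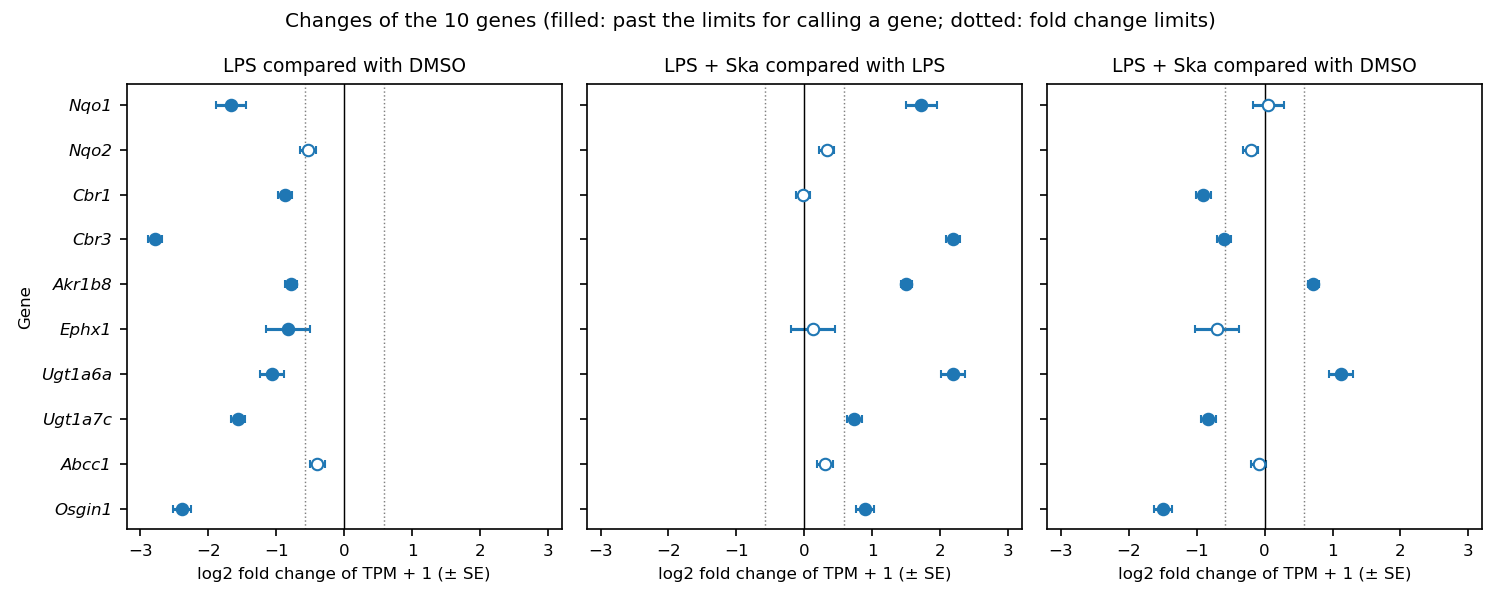
Log2 fold change of TPM + 1 (x axis, ± SE from limma) of each gene in the 3 comparisons. Filled circles are past the limits for calling a gene, and dotted lines mark the fold change limits of 1.5 and 0.67. With skatole, Ugt1a6a and Cbr3 (2.19 each), Nqo1 (1.72) and Akr1b8 (1.501) lie furthest right, and Cbr1 (-0.02) lies at 0.

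The order of the levels also differed between the groups. With DMSO it ran Akr1b8 (230.1 TPM), Abcc1 (82.4), Ugt1a7c (60.1), Cbr1 (41.0), Nqo2 (26.9), Cbr3 (25.8), Osgin1 (19.7), Ugt1a6a (3.61), Ephx1 (2.83) and Nqo1 (2.80). The columns of Nqo2 and Cbr3 overlapped there, as did those of Ugt1a6a, Ephx1 and Nqo1, so their order is not resolved. With LPS, Cbr1 (22.0 TPM), Ugt1a7c (19.7) and Nqo2 (18.2) overlapped in the middle of the order, and Osgin1 (3.02) and Cbr3 (2.89) overlapped further down. Ephx1 (1.30) overlapped Ugt1a6a (1.21), and its highest column (2.32) also lay above the lowest column of Osgin1 (2.29). Nqo1 came last at no more than 0.413 TPM, above the lowest column of Ephx1. With LPS + Ska, Ugt1a7c (33.6 TPM) followed Akr1b8 and Abcc1, Nqo2 (23.1) and Cbr1 (21.5) overlapped, Cbr3 (16.7) and Ugt1a6a (8.94) followed without overlap, and Osgin1 (6.37), Nqo1 (3.002) and Ephx1 (1.37) came last. Cbr3 thus lay at the level of Nqo2 in resting cells, at that of Osgin1 with LPS and between Cbr1 and Ugt1a6a with LPS + Ska.

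To see how other enzymes of the same kinds behaved, 6 lists with 88 further genes were read, of which 46 passed the filter. In LPS compared with DMSO, 4 of the 46 were called higher and 21 lower (median log2 fold change -0.44). These are 8.70% and 45.7%, beside 12.7% and 20.0% of all tested genes. In LPS + Ska compared with LPS, 3 were called higher and 0 lower by limma, with 10 higher and 6 lower at an unadjusted p below 0.05 (median 0.05). The 3 are 6.52% of the list genes, where 3.35% of all tested genes were called higher and 6.14% lower. In LPS + Ska compared with DMSO, 5 were higher and 18 lower (median -0.31). These are 10.9% and 39.1%, beside 11.4% and 25.3% of all tested genes. The same shares of all tested genes apply to the counts for each list below. With the other scaling named in the closing section the calls of all tested genes shifted from 35.3% to 52.0% higher in LPS + Ska compared with LPS.

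Among 17 tested aldo-keto, carbonyl and quinone-type reductases, 8 fell and 2 rose with LPS, and skatole raised 3. Ptgr1, the prostaglandin reductase that also reduces unsaturated aldehydes, had 14.2 ± 1.22 TPM with DMSO, 8.43 ± 0.972 with LPS and 25.9 ± 2.29 with skatole added (SD, n = 3 columns), with a log2 fold change of 1.51 over LPS (SE 0.11, adjusted p = 3.67e-05) and 0.82 over DMSO (SE 0.11, adjusted p = 0.000134). It thus lay lowest with LPS and above resting cells with skatole, as Akr1b8 and Ugt1a6a did. Dcxr, the dicarbonyl and xylulose reductase, rose from 8.29 ± 1.51 to 14.6 ± 0.669 TPM (log2 fold change 0.76, SE 0.18, adjusted p = 0.0142), a call lost without LPS replicate 7 (0.63) and with replicates 6 and 7 alone (0.76). Akr1b3 rose from 417 ± 28.5 TPM with DMSO to 750 ± 80.5 with LPS and 1169 ± 99.8 with LPS + Ska (log2 fold change 0.64 over LPS, SE 0.09, adjusted p = 0.00131), a call lost without LPS replicate 7 (0.56) or without LPS + Ska replicate 7 (0.58). Of the reductases that LPS had changed, Cbr2, Akr7a5 and Cryzl1 were near their LPS level with skatole. Cbr2, another carbonyl reductase gene, had 4.38 TPM with DMSO, 0.195 with LPS and 0.211 with LPS + Ska. Akr7a5, an aflatoxin aldehyde reductase, had 49.96, 21.4 and 20.8 TPM, and Cryzl1, a quinone oxidoreductase-like gene, had 45.9, 86.3 and 84.2 TPM, in the same order of groups. For Cbr2, Akr7a5 and Cryzl1 the log2 fold change over LPS was 0.01, -0.04 and -0.03, and its sign flipped under at least 1 alternative.

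Aldehyde dehydrogenases clear carbonyls by oxidation to acids. Of 11 tested, LPS lowered 6 and raised 1, and 0 were called in LPS + Ska compared with LPS by limma (4 at an unadjusted p below 0.05, 2 of them higher and 2 lower). Aldh2, the main mitochondrial acetaldehyde dehydrogenase, had 186 ± 6.62 TPM with DMSO, 31.4 ± 1.99 with LPS and 37.7 ± 8.92 with skatole added (SD, n = 3 columns). It fell by 2.53 on the log2 scale with LPS (SE 0.14, adjusted p = 8.54e-07) and differed by 0.23 with skatole over LPS (SE 0.14, adjusted p = 0.246). Aldh16a1 fell by 1.67 with LPS (adjusted p = 2.42e-06) and differed by 0.34 with skatole (adjusted p = 0.0443), below the fold limit. Aldh1l2, a mitochondrial folate enzyme, rose by 1.11 with LPS (adjusted p = 0.000784).

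In the list of other conjugation genes, 6 of 23 were expressed enough to be tested, 2 fell with LPS and 0 were called with skatole over LPS by limma (3 at an unadjusted p below 0.05, 2 of them higher and 1 lower). Ugdh, which makes the glucuronic acid donor and is named after its values were seen, went from 42.7 TPM with LPS to 63.7 TPM with skatole added, a log2 fold change of 0.56 just short of the fold limit (adjusted p = 0.00246). Papss1, which makes the sulfate donor, was among those that fell (40.4, 25.2 and 26.5 TPM with DMSO, LPS and LPS + Ska; adjusted p = 2.21e-05 with LPS). Of 5 tested efflux transporters other than Abcc1, 3 fell with LPS and 0 were called with skatole over LPS by limma (0 also at an unadjusted p below 0.05). Abcc3, a conjugate exporter, had 4.85, 0.418 and 0.733 TPM, with a log2 fold change of -2.03 (SE 0.17, adjusted p = 1.11e-05) with LPS and 0.29 (SE 0.17, adjusted p = 0.246) with skatole over LPS. Abcc10 had 3.08, 1.34 and 1.37 TPM. Lta4h, a leukotriene hydrolase, was the only one of 4 further epoxide hydrolases that was tested, and it was not called in any comparison.

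Of the regulators, Nfe2l2, which encodes Nrf2, had 122 ± 5.39, 104 ± 2.58 and 107 ± 7.23 TPM (SD, n = 3 columns) with DMSO, LPS and LPS + Ska, a log2 fold change of 0.04 with skatole over LPS (SE 0.06, adjusted p = 0.671). Keap1 fell with LPS from 65.7 ± 4.68 to 38.8 ± 4.82 TPM (log2 fold change -0.75, SE 0.09, adjusted p = 0.000101) and had 34.3 ± 0.277 TPM with LPS + Ska. Ahrr, the AhR repressor gene, fell from 3.26 ± 0.721 to 0.890 ± 0.174 TPM (log2 fold change -1.16, SE 0.17, adjusted p = 0.000296) and had 0.618 ± 0.109 TPM with LPS + Ska. Osgin2, the relative of Osgin1, moved the other way from Osgin1 with LPS, from 31.6 ± 2.33 to 55.1 ± 2.06 TPM (log2 fold change 0.78, SE 0.07, adjusted p = 1.21e-05), and had 59.8 ± 1.75 TPM with LPS + Ska. None of the 6 tested genes of this list was called by limma in LPS + Ska compared with LPS, and 0 had an unadjusted p below 0.05. The list held 9 genes. The other 3, the receptor gene Ahr and the genes Cyp1a1 and Cyp1b1, did not pass the filter on low values, so their response was not tested.

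**Figure D4:**
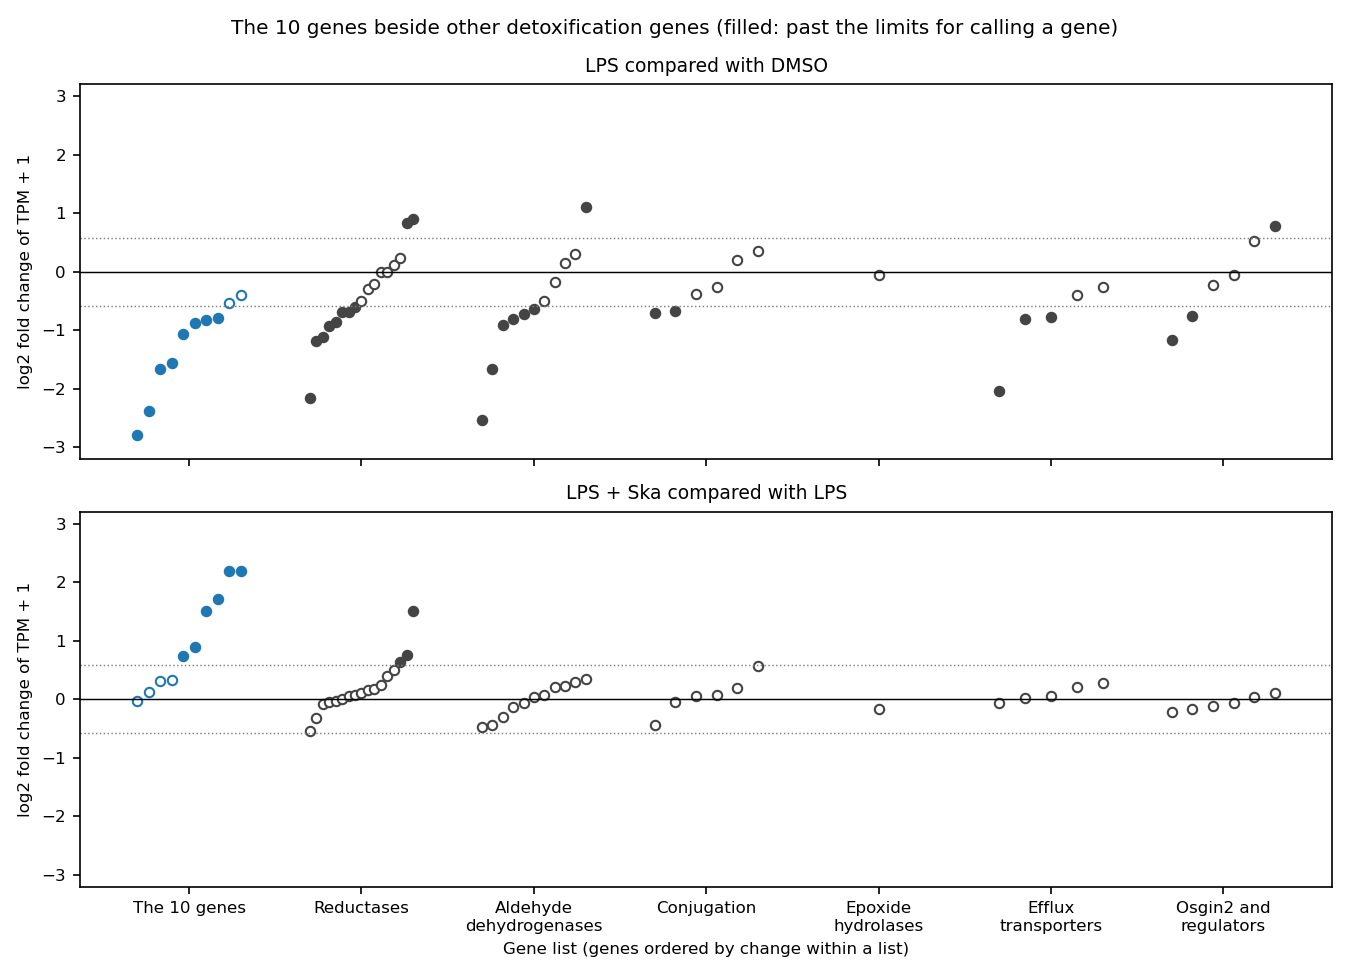
Log2 fold change of TPM + 1 (y axis) in LPS compared with DMSO (top) and LPS + Ska compared with LPS (bottom) for the 10 genes, in blue, and the tested genes of 6 lists, in grey, along the x axis; each circle is a gene, filled where called. In the bottom panel 6 of the 10 genes and 3 of the 46 list genes, all 3 of them reductases, are filled above 0. Of all tested genes, 3.35% were called higher there, and the 10 genes were chosen with their values known.

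The promoter windows of the 10 genes were searched for motifs of the regulators named above. RefSeq gave 10 windows for 9 of the genes (GRCm38, 250 bases before to 50 bases after the start, with 2 windows for Nqo2) and no entry for Abcc1. The antioxidant response element core TGACNNNGC, on either strand, was found in 0 of the 10 windows, where 12.4% of all 32851 windows held it. The xenobiotic response element core GCGTG, on either strand, was found in 5 windows of 4 genes (Nqo2, Cbr1, Akr1b8 and Osgin1), where 32.4% of all windows held it. The GC that ends the first motif can be the start of the second, but with 0 of the first motif no such overlap occurred. Osgin1 is shown because it held a core and was called in each comparison (chr8:119436897-119437117, plus strand, GRCm38, with the core on the opposite strand in capitals).
Osgin1: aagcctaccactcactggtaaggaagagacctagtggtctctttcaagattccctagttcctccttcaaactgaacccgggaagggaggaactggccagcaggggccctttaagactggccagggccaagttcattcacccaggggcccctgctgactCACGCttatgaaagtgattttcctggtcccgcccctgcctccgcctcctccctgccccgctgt
Nqo1 is shown as the gene with the lowest LPS level and no match (chr8:107403207-107403455, minus strand, GRCm38, read 5′ to 3′ on that strand).
Nqo1: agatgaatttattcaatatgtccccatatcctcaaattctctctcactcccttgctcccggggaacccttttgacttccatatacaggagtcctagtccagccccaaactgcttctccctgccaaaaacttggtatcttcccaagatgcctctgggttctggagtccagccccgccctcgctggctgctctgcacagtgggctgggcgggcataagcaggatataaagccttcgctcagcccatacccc
A match is a string of letters and not a bound site, and a window without one says nothing about elements further away. Genes with the XRE core were called higher in LPS + Ska compared with LPS (Akr1b8 and Osgin1) and not called (Nqo2 and Cbr1), and so were genes without it (Nqo1, Cbr3, Ugt1a6a and Ugt1a7c called, Ephx1 not called).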

How the data were processed

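RNA-seq of 9 RAW264.7 samples was analysed from the TPM values that the authors deposited for 55401 Ensembl genes. The submitters' processing notes name fastp 0.20.1, HISAT2 2.2.1, StringTie 2.0 and mm10; the annotation used for counting is not given in the sources used here. Symbols came from a reference table (55141 identifiers matched), loci from GENCODE vM21 and promoter sequences from RefSeq, both on GRCm38. Fold changes were fitted with limma 3.58.1 in R 4.3.3 (lmFit, eBayes with trend) on log2(TPM + 1), for the 12819 genes that averaged at least 1 TPM, with all 9 columns in the fit and Benjamini-Hochberg adjustment. The fit was tested on simulated data with 9 independent columns. These lacked the tie of the treated columns, so the test does not show how the fit behaves with it. The members, lists and tests were chosen with earlier results of these data known. The genes named were the 10 members, the measured Ugt1a genes and, of each list, up to 3 called genes with the largest change in each direction with skatole over LPS and up to 2 with LPS, except for 1 gene that is not reported here. The levels of 3 genes alike in pattern to each of the 3 members that changed most with skatole were also given. Serpinb6a, Akr1b10, Nfe2l2, Ugdh and Lta4h were named after their values were seen. Ahr, Cyp1a1 and Cyp1b1 were named as list genes that were not tested. Residuals from the group means, set against each other by replicate number, correlated at 0.38, 0.15 and 0.13 between LPS and LPS + Ska, whose columns are tied in the same form, and at -0.032 to 0.080 otherwise, so no pairing was assumed. Alternatives were a pseudocount of 0.1, no filter, median-ratio scaling, a replicate block, values rebuilt from the tied columns, replicates 6 and 7 alone, the compared groups alone, the Ugt1a locus summed and each column left out in turn. The rebuilt values were replicate 5 plus and minus its distance from replicates 6 and 7 divided by 2. No source shows that these were the original values, and they spread less than the columns in the table. Figures were drawn with matplotlib 3.10.9.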

Additional observations from a re-analysis of the deposited data

How the results depend on the processing

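Over 16 alternatives, 7 or 8 of the 10 genes were called lower in LPS compared with DMSO, 5 or 6 higher in LPS + Ska compared with LPS, and 2 higher and 3 to 5 lower in LPS + Ska compared with DMSO. With replicates 6 and 7 alone, all genes called in LPS + Ska compared with LPS dropped to 153 higher and 227 lower, from 429 and 787. Of the 46 list genes in that comparison, 1 was called lower with a pseudocount of 0.1, and leaving out single columns gave 1 to 4 higher (1 without LPS replicate 7) and 0 to 1 lower (1 without LPS replicate 6 or LPS + Ska replicate 7). Median-ratio scaling moved the median of all genes by 0.0803, 0.0947 and 0.175 (log2) in the order LPS compared with DMSO, LPS + Ska compared with LPS and LPS + Ska compared with DMSO. The share of called genes that were higher went from 38.9% to 47.8%, from 35.3% to 52.0% and from 31.0% to 48.4%. This scaling turned the sign over LPS of Cbr1 (0.0711), Cryzl1 (0.0658) and Akr7a5 (0.0574), and that of Abcc1 over DMSO (0.0927). A pseudocount of 0.1 turned Cbr2 over LPS (-0.0652), and summing the locus turned Ugt1a6a over DMSO (-0.57). None of these turned values was called, and of the values before the turn only that of Ugt1a6a (1.12) was. Leaving out single columns also turned signs of uncalled differences, with ranges over LPS of -0.136 to 0.0818 for Cbr1, -0.242 to 0.441 for Ephx1, -0.0877 to 0.0209 for Cryzl1, -0.0820 to 0.107 for Cbr2 and -0.0096 to 0.0392 for Abcc10, and over DMSO of -0.125 to 0.249 for Nqo1 and -0.218 to 0.0488 for Abcc1. Over DMSO, median-ratio scaling ended the calls of Cbr3 (-0.42) and Papss1 (-0.41) and took the list genes called lower from 18 to 12. The replicate block gave 7, 6, and 2 and 4 called members in the same comparisons, losing only Ephx1 in LPS compared with DMSO, and 427 higher and 771 lower genes in LPS + Ska compared with LPS. The cause of these shifts was not tested. Low TPM and unknown depth limit what can be said of Nqo1, Ephx1 and Ugt1a6a.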

Other observations

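The genes whose log2(TPM + 1) followed a member most closely over the 9 columns are given as a description, since all columns come from 3 groups and any gene with the same order of groups scores high. For Ugt1a6a these were Apbb3 (Pearson r 0.993; mean 23.8, 19.8 and 29.0 TPM with DMSO, LPS and LPS + Ska), D630023F18Rik (0.992; 10.8, 8.44 and 14.6 TPM) and the C-type lectin gene Clec4d (0.984; 206, 130 and 375 TPM). For Cbr3 they were the claudin gene Cldn11 (0.992; 149.8, 48.6 and 119 TPM), Abhd4 (0.991; 17.1, 8.54 and 14.1 TPM) and the tetraspanin gene Tspan4 (0.989; 176, 118 and 158 TPM). For Nqo1 they were Cox14, a cytochrome c oxidase assembly gene (0.987; 27.1, 15.1 and 28.1 TPM), the microsomal glutathione transferase gene Mgst2 (0.982; 59.0, 23.3 and 57.3 TPM) and the sulfotransferase gene Chst14 (0.977; 10.9, 6.76 and 10.0 TPM).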
